A study of Mus musculus with 6 samples.

Results

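The genes described here are 10 members of the class I antigen presentation pathway of the mouse: B2m, the class I heavy chain genes H2-K1, H2-D1 and H2-T23, the peptide transport and loading genes Tap1, Tap2 and Tapbp, and the immunoproteasome subunits Psmb8, Psmb9 and Psmb10. They were chosen by name, with earlier results of these data known. Every probe that the platform annotation assigns to a member was taken, which gave 22 probes of 45281 on the array and 10 of 19057 named genes. Transcript levels came from Illumina bead arrays hybridised with RNA of Sertoli cells, the somatic cells that nurse germ cells inside the seminiferous tubules, sorted by fluorescence from mice 6 weeks of age with a Sox9-GFP reporter. In the Rb cKO group (3 arrays, written cKO) the genotype was Rb1 flox/- with Amh-Cre, so that Cre under the Sertoli cell promoter of Amh acts on the floxed allele of the retinoblastoma gene while the other allele is null. The Control group (3 arrays) was Rb1 flox/- without Cre, and therefore also had a single functional Rb1 allele. All mice were of C57B6J/129SvEv background. Only the cKO cells carried Cre, so that an effect of Cre and an effect of Rb1 loss cannot be told apart. Nothing in the labels ties the arrays to different mice, so the tests rest on variation among samples that could be technical. The comparison asks how loss of Rb1 changes Sertoli cell transcripts.

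Class I molecules display peptides from inside the cell to cytotoxic T cells and natural killer cells. Proteasomes cut proteins into peptides, the TAP transporter carries the peptides into the endoplasmic reticulum, tapasin (Tapbp) holds TAP beside an empty class I molecule, and the loaded complex of heavy chain and beta-2 microglobulin (B2m) goes to the surface. In the immunoproteasome the catalytic subunits Psmb8, Psmb9 and Psmb10 take the places of Psmb5, Psmb6 and Psmb7. Interferon-gamma is the classical inducer of these genes, acting in part through Irf1 and the coactivator Nlrc5. Sertoli cells are known as immune-privileged cells that shelter meiotic germ cells behind the blood-testis barrier.

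Promoter sequence is shown first because members of the pathway are known to share control elements. Windows of 250 bases upstream of the annotated start were taken from RefSeq (GRCm38.p6) for 9 of the 10 members, all but Tap2. The motifs searched on both strands were the IRF core AANNGAAA, the κB motif, the CCAAT box (CCAAT), the X2 box core TGACG and the GAS element TTCNNNGAA, and the motifs can overlap each other. Capitals mark matches to the first 4 of these. The class I genes H2-K1 (chr17:34000334-34000583, minus strand, the more downstream of its 2 annotated starts), H2-D1 (chr17:35262844-35263093, plus strand), B2m (chr2:122147437-122147686, plus strand) and H2-T23 (chr17:36032702-36032951, minus strand) are shown with the stretch between the starts of Tap1 and Psmb9 (chr17:34187331-34187555, written on the plus strand, in the direction of Tap1).
H2-K1: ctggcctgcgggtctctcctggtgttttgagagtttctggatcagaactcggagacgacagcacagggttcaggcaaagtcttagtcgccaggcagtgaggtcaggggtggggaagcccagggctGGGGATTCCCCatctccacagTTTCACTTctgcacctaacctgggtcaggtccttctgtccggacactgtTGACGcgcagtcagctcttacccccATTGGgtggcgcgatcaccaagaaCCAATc
H2-D1: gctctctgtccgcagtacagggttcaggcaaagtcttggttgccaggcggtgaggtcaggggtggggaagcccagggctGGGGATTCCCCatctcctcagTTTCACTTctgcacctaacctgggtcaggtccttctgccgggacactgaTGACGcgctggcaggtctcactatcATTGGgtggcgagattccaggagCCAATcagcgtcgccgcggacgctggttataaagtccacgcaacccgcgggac
B2m: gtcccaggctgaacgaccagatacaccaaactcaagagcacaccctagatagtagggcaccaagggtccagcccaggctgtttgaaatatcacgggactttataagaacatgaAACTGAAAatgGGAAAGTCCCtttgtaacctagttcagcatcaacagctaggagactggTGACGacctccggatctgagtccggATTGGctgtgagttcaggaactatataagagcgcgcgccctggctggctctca
H2-T23: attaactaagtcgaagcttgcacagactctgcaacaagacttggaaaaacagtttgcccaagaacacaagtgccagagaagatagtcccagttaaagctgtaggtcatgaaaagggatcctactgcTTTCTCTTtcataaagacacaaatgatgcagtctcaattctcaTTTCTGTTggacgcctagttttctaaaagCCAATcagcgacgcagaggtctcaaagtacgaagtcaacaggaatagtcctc
Tap1-Psmb9: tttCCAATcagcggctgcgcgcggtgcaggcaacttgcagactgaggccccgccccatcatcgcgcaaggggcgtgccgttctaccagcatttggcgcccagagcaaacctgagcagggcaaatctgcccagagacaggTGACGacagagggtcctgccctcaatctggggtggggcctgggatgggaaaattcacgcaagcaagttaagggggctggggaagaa

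The IRF core was found upstream of 4 members (B2m, H2-D1, H2-K1 and H2-T23), against 21.3% of all 32851 RefSeq windows of this length. The κB motif was found upstream of 3 (B2m, H2-D1 and H2-K1), against 7.25% of windows. The CCAAT box was found upstream of 7 members (33.8% of windows), TGACG upstream of 5 (17.8%), and the GAS element upstream of Psmb8 alone (7.02%). Matches are descriptions of letters and are not independent between members: H2-K1 and H2-D1 were 88.7% identical over 203 aligned bases, and Tap1 and Psmb9 are read in opposite directions from starts 225 bases apart, so their windows hold the same sequence. By the RefSeq gene order, Psmb9, Tap1, Psmb8 and Tap2 follow each other on chromosome 17 with no other protein-coding gene between them. Of the 10 members 8 lie on chromosome 17, and B2m and Psmb10 lie on chromosomes 2 and 8.

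A probe was tested where it was detected on at least 3 of the 6 arrays, with detection taken as a score over 0.95. That held for 17 of the 22 member probes and for 9 of the 10 genes, with no tested probe for Psmb8. Levels are normalised log2 intensities, so that a difference of 1 is a doubling, and a gene is read by its brightest tested probe with the other probes beside it. On each array 43.0% to 53.5% of probes were detected. Replicate 1 of cKO and replicate 3 of Control lay at the ends of the first principal component (-113.9 and 110.2, with the other 4 arrays between -34.3 and 31.4), and member values are therefore also given without these 2 arrays. Both Rb1 probes were lower in cKO, by -1.22 ± 0.32 and -0.98 ± 0.34 (SE), and their arrays did not overlap, although neither passed the test. Whether either probe falls within the floxed part is not known here, so they check the labels only in part. All 15 tested Sertoli markers were detected on at least 2 arrays of each group, but their differences ran from -2.69 to -0.01. Aard (14.87 and 14.88 in cKO and Control) and Cldn11 (14.50 and 14.57), near the top of the intensity scale, were among the least different. Inha gave -2.69 ± 1.54 (5.42, 9.92 and 12.24 against 11.59, 11.20 and 12.85), Trf -2.54 ± 1.25 (4.57, 7.77 and 9.97 against 9.64, 9.19 and 11.10) and Sox8 -1.04 ± 0.44, with cKO replicate 1 the lowest of the 6 arrays for each and none past the threshold. In bulk RNA, more cells of a type and more RNA per cell cannot be told apart.

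Of the 9 tested member genes, 8 had a higher mean in cKO, and the median difference was 0.94 on the log2 scale. Over all 12277 genes tested, 61.3% had a positive difference and the median was 0.12. By the brightest probe no member gene passed an adjusted p under 0.05 in limma, against 0.195% of all genes called as higher (24 genes), while 5 of the 9 members had an unadjusted p under 0.05 as higher, against 5.96% of all genes, and 0 as lower, against 1.81%. The cKO arrays all exceeded the Control arrays for 5 of the 9 members, against 9.56% of all genes, and lay below them for 0, against 4.33%. Among the tested probes of the members 1 of 17, a probe of H2-T23, was called as higher, against 0.142% of all tested probes. That probe met the detection filter only through the cKO arrays, where it was high, and the other tested probes of H2-T23 were not called. The members were chosen with earlier results of these data known, so no conclusion about them is drawn from any of these shares. The member median was 1.01 without cKO replicate 1 and Control replicate 3, and ran from 0.81 to 1.23 over all alternatives.

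**Figure D1:**
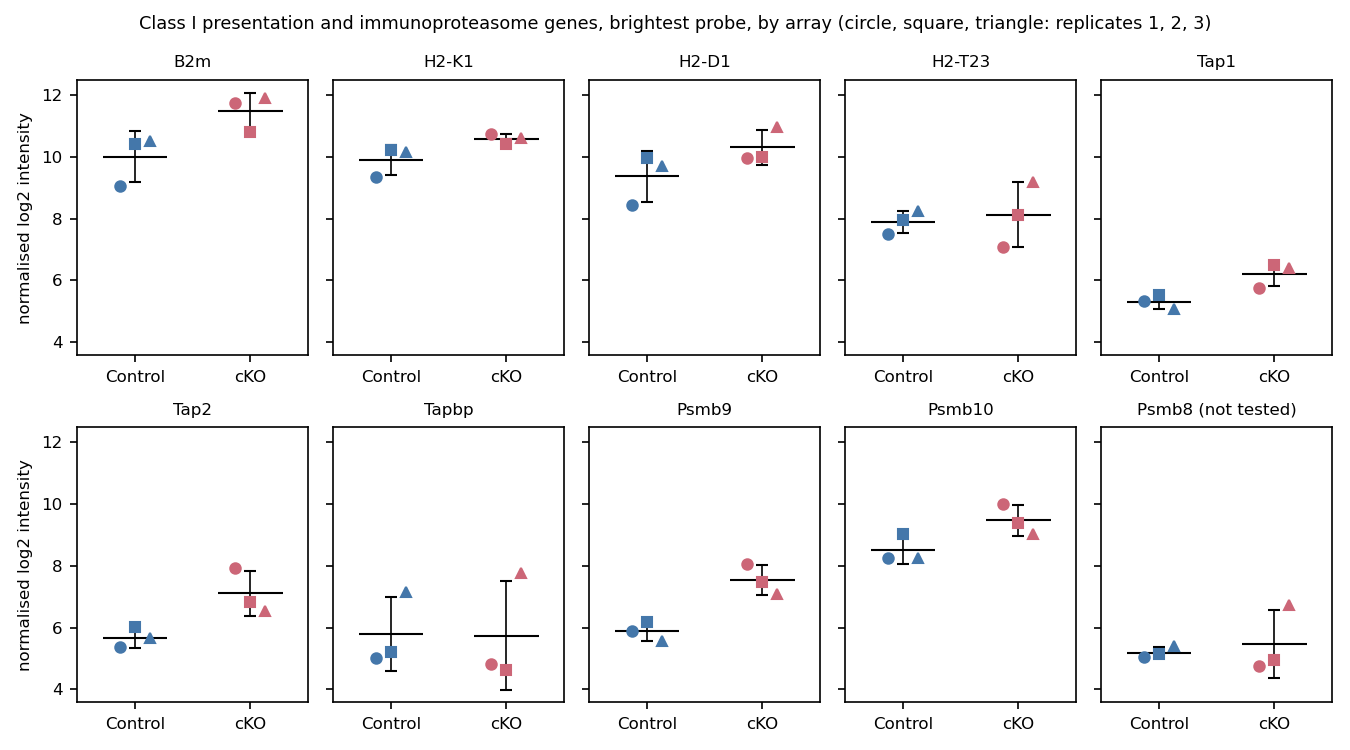
Normalised log2 intensity (y axis) of the brightest probe of each member on the 3 Control and 3 cKO arrays (x axis), with symbols for the replicate number, a line for the mean and a bar for the SD. B2m, H2-K1, Tap1, Tap2 and Psmb9 separate the groups, while the arrays overlap for H2-D1, H2-T23, Tapbp, Psmb10 and the dim, untested Psmb8 probe.

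B2m, the light chain that every classical class I molecule needs, was among the members with the larger differences. In order of replicate number, its brightest probe (ILMN_2739999) read 11.75, 10.81 and 11.91 in cKO, against 9.05, 10.43 and 10.52 in Control; values of other probes are given in the same order. The groups did not overlap, although cKO replicate 2 lay only just above the upper controls and Control replicate 1 lay well below the other controls. The means were 11.49 ± 0.59 (SD, n = 3) and 9.998 ± 0.82, which differ by 1.49 ± 0.49 (SE), or 2.81-fold (limma, adjusted p = 0.619). A second probe (ILMN_1216746) gave nearly the same difference, 1.51 ± 0.51, and another (ILMN_2670561) was detected on none of the arrays. Leaving out Control replicate 1 brought the B2m difference to 1.02, and leaving out the 2 arrays that stood apart brought it to 1.62.

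The heavy chain genes H2-K1 and H2-D1 encode the classical class I molecules. They are closely related genes, and whether a probe of either also binds transcripts of the other was not tested, so the split between them is uncertain. H2-K1 (ILMN_2588139) read 10.74, 10.43 and 10.59 in cKO against 9.34, 10.23 and 10.14 in Control. The cKO arrays lay within a narrow band above all controls, and the difference of 0.68 ± 0.32 (SE), or 1.61-fold, gave an adjusted p of 0.766 in limma. Without Control replicate 1 it was 0.40. Of the other H2-K1 probes, ILMN_2795520 was dim and differed by 0.23 ± 0.40 with overlapping arrays, and ILMN_2634603 was detected on 1 array of each group.

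H2-D1 had 3 tested probes, and their differences spread widely. The brightest (ILMN_2476267) read 9.96, 10.002 and 10.96 in cKO and 8.42, 9.97 and 9.71 in Control. Control replicate 2 lay level with cKO replicates 1 and 2, so the groups overlapped. The difference was 0.94 ± 0.48 (SE) (limma, adjusted p = 0.766). Probe ILMN_2944011 read 7.33, 7.22 and 7.91 against 5.57, 7.19 and 6.27, a difference of 1.14 ± 0.44 with no overlap. Probe ILMN_2462745 differed by only 0.19 ± 0.77 and read 8.07, 9.10 and 10.83 against 8.11, 9.19 and 10.15 in Control. On that probe the arrays of one replicate number lay close together in both groups, and the difference was -0.56 without cKO replicate 3, -0.33 without Control replicate 1 and 1.32 once the 2 arrays that stood apart were left out. The fourth probe, ILMN_2608090, was detected on none.

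H2-T23 encodes Qa-1, a nonclassical class I molecule that presents leader peptides of other class I chains to the NKG2A receptor of natural killer cells. Its 3 probes carry the same RefSeq accession in the platform annotation and gave different answers. Probe ILMN_1223179 rose in cKO: it read 9.07, 7.56 and 7.97 there against 5.13, 4.85 and 4.65 in Control. It was detected on all 3 cKO arrays and was not above background on any Control array, so the change is given as a bound, at least 8.94-fold higher. For this bound each Control array counted at its dimmest detected signal, or at the reading of the probe itself where that was brighter. The fitted difference was 3.32 ± 0.42 (SE) (limma, adjusted p = 0.0499).

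That call lay at the threshold. The adjusted p was 0.0835 with the replicate number as a block, 0.0649, 0.151 and 0.0705 without cKO replicates 1, 2 and 3, and 0.269, 0.286 and 0.222 without Control replicates 1, 2 and 3. It was past the threshold in 1 of 13 alternatives (median scaling, 0.0340) and was 0.343 at its highest over them. The cKO arrays exceeded the Control arrays in all 13. Probes ILMN_2777471 and ILMN_2777474 were detected on all 6 arrays and did not pass, with differences of 0.50 ± 0.50 and 0.23 ± 0.52 (SE). The latter, the brightest, read 7.08, 8.11 and 9.18 in cKO against 7.51, 7.94 and 8.23 in Control, so that cKO replicate 1 was the lowest of the 6 arrays and cKO replicate 3 the highest. On ILMN_1223179, by contrast, cKO replicate 1 was the highest of the 6. Without cKO replicate 1 and Control replicate 3 the differences of the 3 probes were 2.78, 1.07 and 0.92. The gene therefore cannot be given a single size of change from these probes.

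**Figure D2:**
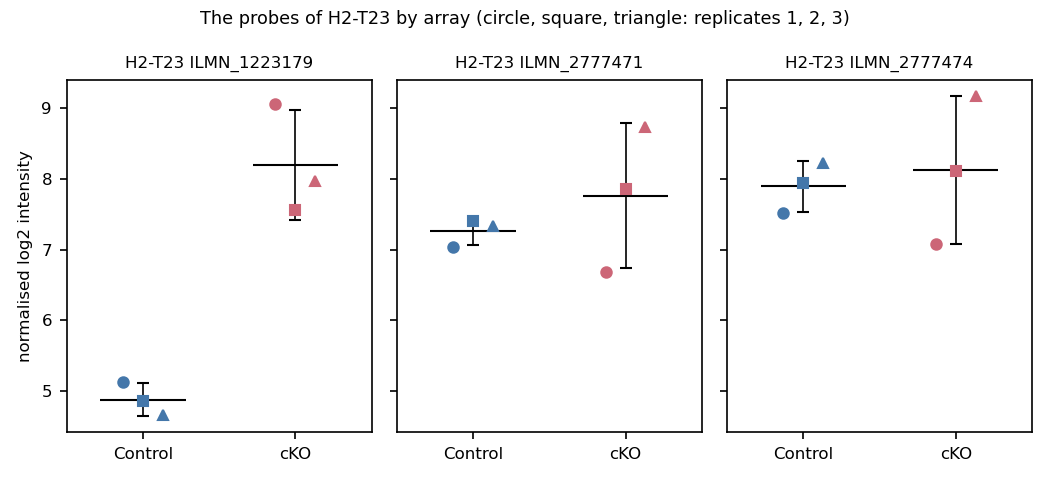
Normalised log2 intensity (y axis) of the 3 probes of H2-T23 on the Control and cKO arrays (x axis), with symbols for the replicate number, a line for the mean and a bar for the SD. Probe ILMN_1223179 lies between 4.65 and 5.13 in Control and between 7.56 and 9.07 in cKO, while the other probes overlap between the groups.

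Tap1 and Tap2 form the 2 chains of the peptide transporter, and both were higher in every cKO array than in any control. Tap2 (ILMN_2686721) read 7.94, 6.84 and 6.55 in cKO and 5.36, 6.02 and 5.66 in Control, a difference of 1.43 ± 0.41 (SE) or 2.69-fold (limma, adjusted p = 0.483). Tap1 (ILMN_1250409) was dimmer, at 5.76, 6.49 and 6.39 against 5.34, 5.51 and 5.07. Its difference was 0.90 ± 0.30 (SE) or 1.87-fold (limma, adjusted p = 0.631). Both probes were detected on all 6 arrays. Without cKO replicate 1 and Control replicate 3 the differences were 1.00 for Tap2 and 1.01 for Tap1.

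Tapbp, which encodes the tapasin that tethers empty class I molecules to the transporter, showed no such separation. Its brightest probe (ILMN_3155492) was detected on 1 cKO and 2 Control arrays and read 4.83, 4.62 and 7.77 in cKO against 5.01, 5.20 and 7.17 in Control. Replicate 3 was the high array of both groups. The difference of -0.05 ± 0.93 (SE), with a 95% interval from -2.24 to 2.14, includes a change of the size measured for Tap2 in either direction. The other probe (ILMN_1226819) was near background on all arrays but Control replicate 3, at 9.32, and its difference of -1.43 ± 1.09 was 0.013 without that array. The related gene Tapbpl, whose product also edits class I peptides, differed by 0.82 ± 0.42 without passing.

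**Figure D3:**
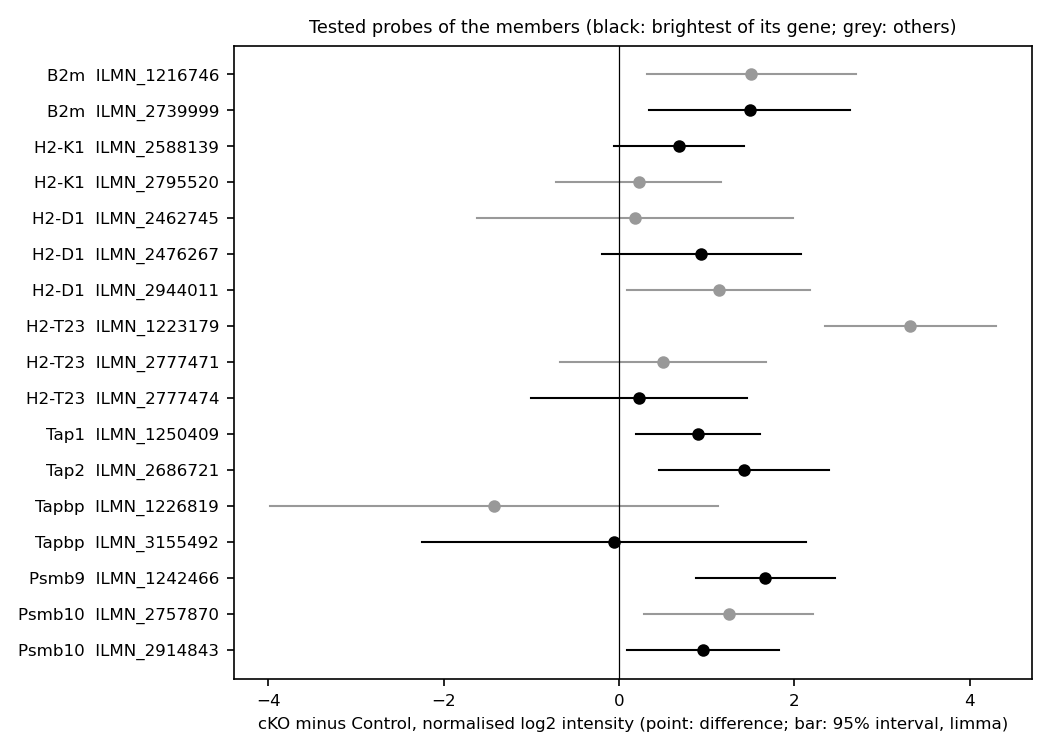
Difference between cKO and Control in normalised log2 intensity (x axis) for the 17 tested probes of the members (y axis), with points for the difference and bars for the 95% interval from limma, black for the brightest probe of each gene and grey for the others. H2-T23 probe ILMN_1223179 stands at 3.32, away from the other probes of that gene, and the 2 Tapbp probes have the widest intervals.

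Of the immunoproteasome subunits, Psmb9 gave the largest difference among the members' brightest probes. It read 8.06, 7.49 and 7.09 in cKO against 5.90, 6.17 and 5.56 in Control. Every cKO array was well above every control, with means of 7.55 ± 0.49 (SD, n = 3) and 5.88 ± 0.31. The difference was 1.67 ± 0.34 (SE), or 3.19-fold (limma, adjusted p = 0.193, or 0.157 with the replicate block). It was 1.26 without cKO replicate 1 and Control replicate 3 and stayed between 1.13 and 1.90 over all alternatives.

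Psmb10 was measured by 2 bright probes. ILMN_2914843 read 10.01, 9.38 and 9.02 in cKO and 8.24, 9.04 and 8.24 in Control, and cKO replicate 3 lay just under Control replicate 2. The difference was 0.96 ± 0.37 (SE) or 1.95-fold (limma, adjusted p = 0.731). ILMN_2757870 differed by 1.25 ± 0.41 and its arrays did not overlap. Without cKO replicate 1 and Control replicate 3 these differences were 0.56 and 0.66.

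Psmb8, the remaining subunit, could not be followed. Probe ILMN_1226683 was detected on 1 array of each group, with linear intensities of 55.0, 63.1 and 148.0 in cKO and 60.7, 58.6 and 82.9 in Control, so that replicate 3 was the brightest of each group. The median intensity of an array was 54.9 to 64.9. ILMN_2693940 was detected on none. Psmb8 lies between Tap1 and Tap2 on the chromosome, and these neighbours gave differences of 0.90 and 1.43 where its own probes were mostly not above background.

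The constitutive subunits that the immunoproteasome subunits replace had differences near 0. Psmb6, the counterpart of Psmb9, read 12.38, 12.66 and 12.74 in cKO and 12.80, 12.66 and 12.70 in Control, a difference of -0.13 ± 0.24 (SE). Psmb7, the counterpart of Psmb10, differed by -0.05 ± 0.23, and Psmb5, the counterpart of Psmb8, by -0.18 ± 0.30. The signs of Psmb6 and Psmb7 turned positive with median scaling and with the deposited values, and 3 other Psmb7 probes gave -1.76, -0.25 and 0.25. The gap between Psmb9 and Psmb6 was wider in cKO by 1.80 log2 units. An exact permutation test, two-sided, gave p = 0.10, the smallest that 3 against 3 unpaired arrays allow. The test did not use the replicate numbers as pairs. For Psmb10 against Psmb7 the gap was wider by 1.01, with p = 0.20 in the same exact test, and both p were 0.20 adjusted over these 2 pairs. The gap was wider for Psmb9 on every cKO array than on any Control array, while for Psmb10 the lowest cKO array (0.54 above the Control mean) lay under Control replicate 2 (0.60).

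The rest of the proteasome had list medians near 0. Of 11 tested subunits and assembly factors of the 20S core, 7 were positive and 4 negative, with a median of 0.04, and of 16 subunits of the 19S regulator 6 were positive and 10 negative, with a median of -0.03. None passed in either direction, and none had an unadjusted p under 0.05. With median scaling the medians were 0.26 and 0.12, against 0.20 for all genes. Psma7 at -1.16 ± 0.88 and Psmd2 at -1.14 ± 0.76 had the largest negative values, with overlapping arrays. The other proteasome activators, which open the core at its ends, had differences of both signs. Psme1 read 11.04, 10.25 and 9.82 in cKO against 9.20, 9.26 and 8.74, a difference of 1.30 ± 0.37 (SE) (limma, adjusted p = 0.466). Its partner Psme2 gave -1.65 ± 1.00, but read 4.54, 7.42 and 8.59 against 7.80, 8.16 and 9.53. Without cKO replicate 1 and Control replicate 3 that value was 0.02. Psme3 and Psme4 differed by 0.38 and 0.10.

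**Figure D4:**
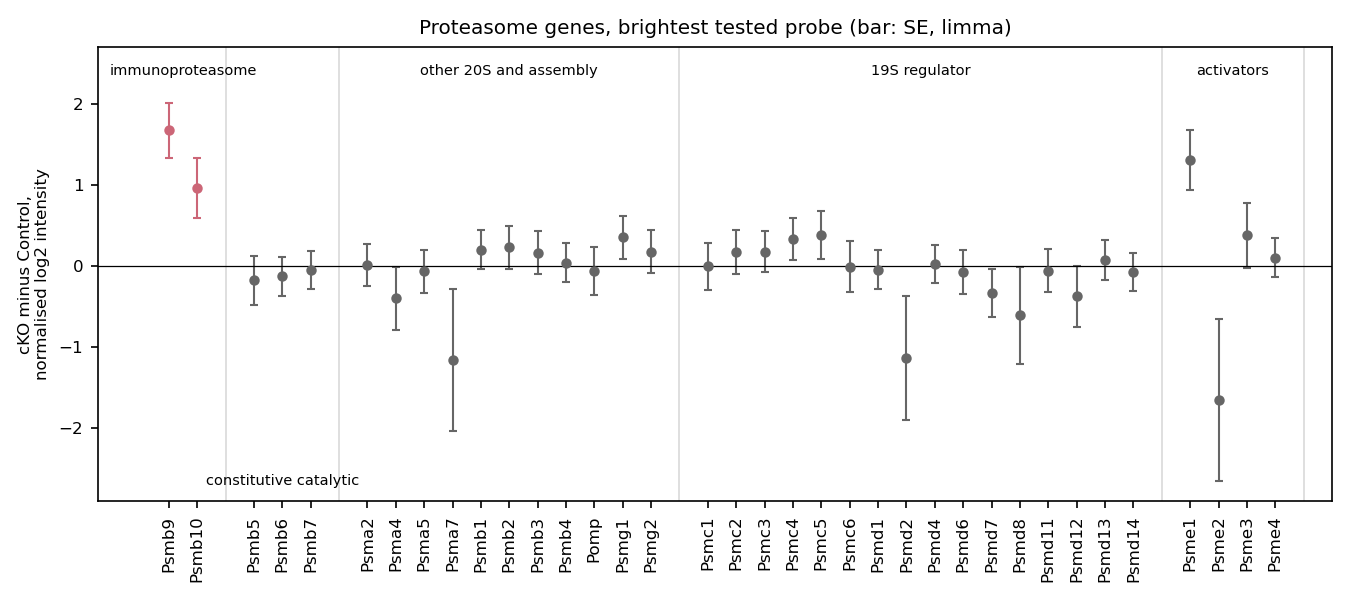
Difference between cKO and Control in normalised log2 intensity (y axis, bars show the SE from limma) for the brightest tested probe of each proteasome gene (x axis), in groups. Psmb9 and Psmb10 stand at 1.67 and 0.96, Psme1 at 1.30, and the constitutive catalytic subunits between -0.18 and -0.05.

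Of the genes that help fold and load class I molecules, 5 of 8 with a probe were tested and their median was -0.72. The chaperones Calr (-2.65 ± 1.51), Pdia3 (-0.98 ± 0.46) and Hspa5 (-0.72 ± 0.54) had negative differences, and none passed. Control replicate 3 was the highest array for each of these, with Calr at 11.71 there and at 5.45 and 6.21 on the other controls, and the list median was -0.05 without cKO replicate 1 and Control replicate 3. Tpp2, a peptidase of the cytosol, differed by -0.03. Probes for Erap1, which trims peptides in the endoplasmic reticulum, and for Canx did not pass the detection filter.

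Of 23 other class I and class I-like genes with a probe 13 were tested, 11 had positive differences, and the median was 0.26. Over all genes tested 61.3% had a positive difference and the median was 0.12. H2-Q5, a class I gene of the Qa region, differed most, at 9.40, 8.14 and 8.61 in cKO against 5.70, 6.85 and 6.03 in Control. The groups were apart, with a difference of 2.52 ± 0.44 (SE) and an adjusted p of 0.124 in limma, 0.0591 at the lowest over the alternatives, but its other 2 probes were detected on no array. H2-M2 and H2-T10 were not above background on Control arrays. By the same kind of bound they were at least 2.64-fold and 1.21-fold higher, with adjusted p of 0.479 and 0.510 in limma. The H2-M2 difference ran from 1.18 to 2.55 log2 units over the alternatives, a range that its bound does not cover. Fcgrt, the class I-like receptor that recycles IgG, differed by 1.13 ± 0.47. No gene of the list passed the threshold, and 4 of the 13 had an unadjusted p under 0.05 as higher in limma, against 5.96% of all genes. Of these 4, H2-M2 and H2-T10 met the detection filter only through the cKO arrays, where they were high. No conclusion is drawn from this count. Whether probes of the H2-Q, H2-T and H2-M genes also bind transcripts of related class I genes was not tested.

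Among the known regulators of class I genes, Irf1, the interferon regulatory factor that binds IRF elements, read 11.81, 11.02 and 11.64 in cKO and 8.22, 9.46 and 10.05 in Control on its brightest probe. The groups were apart and the difference was 2.25 ± 0.49 (SE) (limma, adjusted p = 0.254). Another Irf1 probe gave 2.63 ± 0.44, while 2 more gave 0.50 and 0.49. Relb, an NF-kB subunit, differed by 1.99 ± 0.44 with no overlap, and Rela, another subunit, by -0.22. Nlrc5, the class I coactivator, differed by 0.73 ± 0.33 with overlapping arrays. The 14 tested regulators had 7 positive and 7 negative differences and a median of 0.01, and none passed.

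Receptors and kinases of interferon signalling had a median of 0.09 over 8 tested genes, with none called. Jak2 differed by 0.47 ± 0.28 with the groups apart on its brightest probe and by -0.13 on another, and the receptor chain Ifngr1 by -1.68 ± 0.98, with cKO replicate 1 at 4.69 and the other cKO arrays at 7.45 and 8.84. Probes for interferon-gamma (Ifng), interferon-beta (Ifnb1), 4 other type I interferon genes (Ifna1, Ifna2, Ifna4 and Ifnk) and Tnf were not above background on any array of either group. The cytokine Il15, which supports natural killer and memory T cells, was the tested gene of that list. It read 8.71, 7.77 and 6.94 in cKO against 5.37, 4.98 and 5.09 in Control, a difference of 2.66 ± 0.45 (SE) (limma, adjusted p = 0.114). Its other detected probe, with a fitted difference of 2.33, met the detection filter only through the cKO arrays, where it was high. By the kind of bound used for H2-T23 that probe was at least 3.77-fold higher. The remaining Il15 probes were detected on no array.

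Markers of other cells of the testis differed along with the members, and their part in the results was not tested. Leukocytes and endothelium carry abundant class I molecules, and interstitial cells surround the tubules. Of 20 leukocyte markers with a probe 9 were tested, 8 with positive differences and a median of 0.68. The marker with a negative difference, Mrc1, gave -0.83 ± 0.34 (SE) with its arrays apart in the lower direction. The summed normalised intensity of the list ran from 8093 to 8615 in cKO and from 6976 to 10164 in Control, so the groups overlapped, as they did without Mrc1. Ptprc (CD45), Itgam, Itgax, Cd3g, Cd8a and Tyrobp were not detected on any array. Other markers were detected on some arrays but not tested. Cd14 was detected on 2 cKO and 0 Control arrays, with its arrays apart in the higher direction. A Csf1r probe was detected on 2 cKO and 0 Control arrays, with overlap, and C1qc on 1 cKO and 0 Control arrays. Of Cd3e, 1 probe was detected on 1 cKO array and another on 1 Control array. The class II genes gave a median of 1.39 over 6, with summed levels of 1452 to 2006 in cKO and 1035 to 1492 in Control, which overlapped. Without H2-DMa the sums were apart, at 1070 to 1743 against 285 to 752. H2-DMa was the 1 gene of this list with a negative difference and was left out after the data were seen, so no conclusion is drawn from that separation. Cd74, the invariant chain, differed by 1.70 ± 0.31 and H2-DMa, a loading factor of class II, by -1.20 ± 0.30, with its arrays apart in the lower direction. Class II genes flank the members on chromosome 17: beyond Tap2 lie H2-Ab1 (1.54), H2-Aa (1.35) and H2-Eb1 (1.43). On the other side of Psmb9 lie H2-DMb1 (0.63) and H2-DMa, followed by Brd2 (-0.11), which is not a class II gene. H2-Ob, H2-Eb2, H2-DMb2 and H2-Oa lie in the same stretch and were not tested.

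Endothelial markers had 9 of 9 positive differences and a median of 1.02, and their summed level of 1768 to 4482 in cKO lay above the 501 to 870 of Control. Most of that gap came from Robo4, a guidance receptor of endothelium, at 11.46, 9.96 and 10.22 against 6.97, 7.32 and 6.29. Its difference of 3.69 ± 0.47 (SE) was larger than that of the called H2-T23 probe, with an adjusted p of 0.0514 in limma and 0.0190 at its lowest over the alternatives, while its other tested probes gave 0.23 and 0.31. Without Robo4 the endothelial sum was 774 to 1667 against 423 to 745. Every gene left out of a sum, in this and the preceding paragraph, was chosen after the data were seen. Peritubular myoid markers (5 of 6 positive, median 0.84) had summed levels apart, 7941 to 14623 against 5163 to 7263, but without Acta2, the smooth muscle actin (13.19, 11.61 and 12.45 against 10.75, 10.50 and 10.59), the sums overlapped at 4819 to 5848 against 3443 to 5724. Leydig markers (4 of 5 positive, median 1.26) overlapped, at 2326 to 8616 against 1196 to 2982, and were apart without Insl3, at 783 to 2350 against 430 to 777. Sums also overlapped for germ cell markers (13 of 16 positive, median 0.44), at 85555 to 107232 against 81351 to 103643, with and without Akap4. Sertoli markers had 15 of 15 negative differences and a median of -0.45, with sums of 91048 to 101014 in cKO and 102149 to 113329 in Control, which overlapped without Amhr2 (69516 to 76420 against 76048 to 86160). In the fit described here no gene of these lists was called. Without cKO replicate 1 and Control replicate 3, the medians of the leukocyte, class II, endothelial, peritubular, Leydig, germ cell and Sertoli lists were 0.31, 0.70, 0.60, 0.58, 1.09, 0.33 and -0.32, and that of the members was 1.01.

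**Figure D5:**
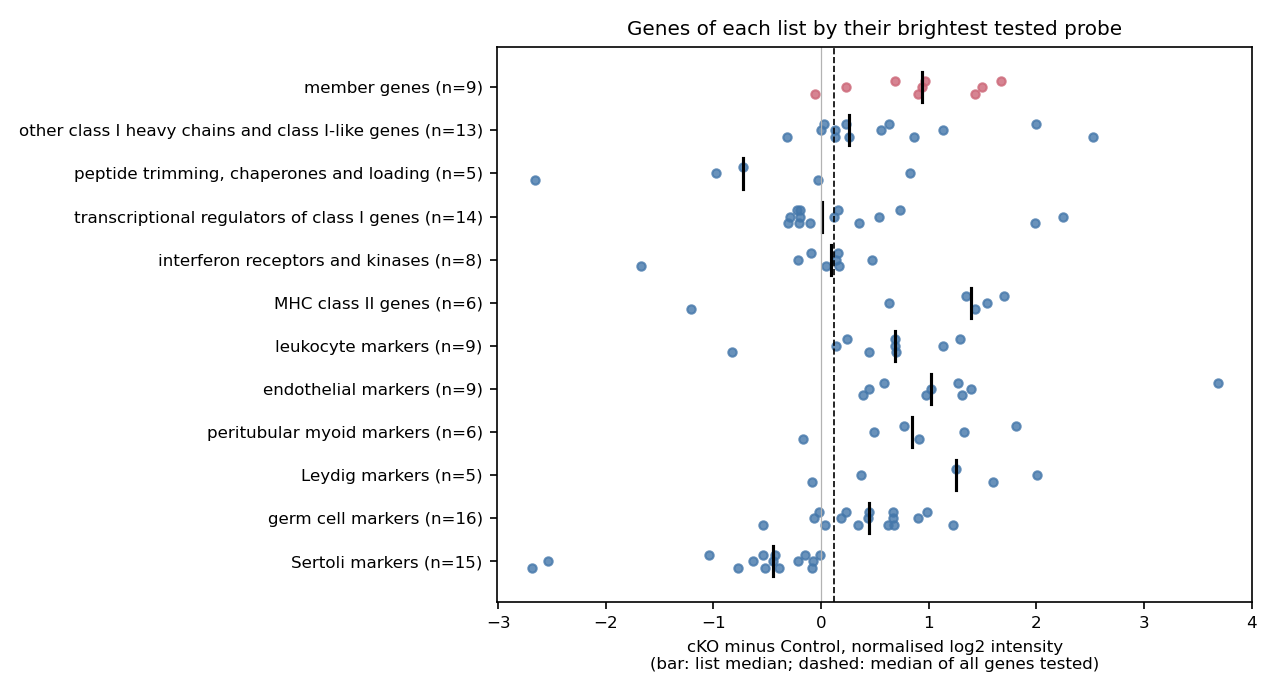
Difference between cKO and Control in normalised log2 intensity (x axis) for the brightest tested probe of each gene, by list (y axis), with bars for list medians and a dashed line for the median of all genes tested, 0.12. The members have a median of 0.94, between the endothelial markers at 1.02 and the peritubular myoid markers at 0.84. The class II genes have 1.39, the Leydig markers 1.26 and the leukocyte markers 0.68, and the Sertoli markers lie below 0.

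The mean profile of the 9 tested members, each set to its own Control mean, read 0.87, 0.65 and 1.24 in cKO against -0.46, 0.24 and 0.22 in Control. All cKO arrays lay above all Control arrays. Genes outside the members were ranked by root mean square distance to this profile over the 6 arrays, with clone and predicted names passed over. The nearest 5 were Krt79 (0.21 log2 units), Fosl2 (0.22), Stra8 (0.24), Col3a1 (0.25) and H2ac22 (0.25). Their differences ran from 0.67 for Stra8 to 1.15 for Fosl2, and none passed the test. Ranked by their difference among all tested genes, Psmb9, B2m and Tap2 exceeded 98.5%, 98.0% and 97.8% of genes, H2-T23 by its brightest probe exceeded 60.1%, and Tapbp 34.2%.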

How the data were processed

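Each of 6 arrays (3 cKO, 3 Control) has a deposited table of mean bead intensity on a linear scale, the spread between beads, the number of beads (median 43 to 44 per probe) and a detection score given as a fraction from 0 to 1, per the file headers; the submitters' processing notes name BeadStudio. The deposited series table holds log2 values that were found to equal log2 intensity less the 75th percentile of the array, then centred per probe on its median; no source used here names the tool. Through this relation 45281 table entries matched 45281 scanner probes, with a largest distance of 0.00040 against 0.0028 to a second probe. The annotation named 1 gene for 34885 probes and several for 18, and left 10378 unnamed.

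Intensities were normalised with neqc (offset 16) in limma 3.58.1 (R 4.3.3), and 21805 probes detected on at least 3 arrays were fitted by group alone (lmFit, eBayes). Those with a gene name stood for 12277 genes, and probes without a name were kept in the fit. Tests were two-sided and adjusted by Benjamini-Hochberg over all these probes, and this fit was tested on simulated data. All adjusted p-values are limma's. Named genes were all members, up to 4 genes of each related list by smallest p, any gene of a list with under 10 genes, and the 5 genes nearest to the mean member profile; Rela, Aard, Cldn11, Inha, Trf, Robo4, Acta2, Brd2 and other genes outside this rule were chosen after their values were seen. The members and lists were chosen with earlier results of these data known. The replicate numbers shared by the groups were taken as pairing the arrays, since deviations from the group means correlated at 0.262, 0.410 and 0.473; they entered as a block in an alternative. Bead error of the member probes was 0.038 to 0.082 log2 units, and the number of arrays limits precision. The pair for Psmb8 and Psmb5 could not be tested because no Psmb8 probe passed the filter. No source used here gives a build for the arrays, and coordinates belong to the RefSeq windows.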

Additional observations from a re-analysis of the deposited data

How the results depend on the processing

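Over the alternatives the count of called probes, 31 as higher and 0 as lower, changed to 9 when normexp had an offset of 50, to 13 when no background was corrected, to 1 when dim probes stayed in, to 56 with 1 probe per gene, to 0 with the replicate block, to 6 without both cKO replicate 1 and Control replicate 3, and to between 0 and 15 without a single array; without Control replicate 1, 2 or 3 it was 0 each time. No member gene was called by its brightest probe under any alternative. The paired fit with the replicate block called 0 member genes too, and it ended the call of H2-T23 probe ILMN_1223179 (adjusted p 0.0835), whose difference was 2.16 with normexp at offset 50. The member median kept its sign throughout, from 0.81 to 1.23.

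Tapbp, which was not called, changed sign: 0.035 with normexp at offset 50, 0.0082 without background correction, 0.015 in the authors' log2 table, and -1.07 to 0.63 without a single array (0.40, 0.51 and 0.63 without cKO replicate 1, cKO replicate 2 and Control replicate 3), and 1.09 without both arrays that stood apart. Its other probe gave -2.19 without Control replicate 2, 0.013 without Control replicate 3 and 0.10 without both. H2-T23 by its brightest probe gave -0.30 without cKO replicate 3 and 0.92 without both, and H2-D1 probe ILMN_2462745 gave -0.56 without cKO replicate 3, -0.33 without Control replicate 1 and 1.32 without both. Probes near background, as for Tapbp and Psmb8, limit what these arrays show.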
